A study of Mus musculus with 5 samples.

Results

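Dermal mast cells were described in 2 single-cell libraries of inflamed mouse skin. A mast cell was a filtered cell in which the protease genes Cma1, Mcpt4, Tpsb2 and Cpa3 together made up at least 1% of the cell's UMIs (unique molecular identifiers, 1 for each captured transcript molecule). Cells entered with 200 or more genes detected and a mitochondrial share of UMIs below 20%. The rule gave 261 cells, of 11942 filtered cells in the 5 libraries of the series: 127 of 2652 cells in lesional whole skin and 134 of 4991 cells in imiquimod dermis. The lesional library came from untreated C57BL/6 mice of 18 weeks with the genotype K5. Pp6fl/fl and psoriasis-like lesions. The imiquimod library came from dermis of wild-type C57BL/6 mice of 10 weeks that had received imiquimod, an agonist of the receptor TLR7, on the ear on 5 days. The other libraries were epidermis of K5. Pp6fl/fl mice of 10 weeks without lesions, and untreated dermis and untreated epidermis of wild-type mice of 10 weeks. In mouse genetics K5 usually stands for the keratin 5 promoter of basal keratinocytes, and Pp6fl/fl for loxP-flanked alleles of the phosphatase gene Ppp6c, but the labels do not spell this out. The number of mice pooled and the body site of the K5. Pp6fl/fl mice are not given in the sources used here.

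Mast cells are long-lived tissue leukocytes that store histamine, heparin and proteases in granules and release them when antigen crosslinks IgE on the high-affinity receptor or when basic peptides bind a Mas-related receptor. They depend on the receptor Kit for survival and on the factors Gata2 and Mitf for their identity. In mouse skin the resident connective tissue type carries the chymase Mcpt4, the protease Cma1, the tryptase Tpsb2 and the carboxypeptidase Cpa3, while Mcpt1 and Mcpt2 are best known from the mucosal type of the gut.

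The genes that define these cells are shown first by the DNA in front of them, since Gata2, a factor that binds the letters AGATAA (also with T as the first or G as the last letter), was itself a mast cell transcript in both libraries. Each line gives the 150 bases upstream of the RefSeq start (GRCm38.p6), 5′ to 3′ on the gene's strand, with each match to those letters on either strand in capitals. The lines are Cma1 (chr14:55944676-55944825, minus strand), Mcpt4 (chr14:56062311-56062460, minus), Cpa3 (chr3:20242182-20242331, minus), Fcer1a (chr1:173227230-173227379, minus), which encodes the IgE-binding chain, Mrgprb2 (chr7:48558087-48558236, minus), the receptor for basic peptides, and Il1rl1 (chr1:40429420-40429569, plus), the IL-33 receptor.
Cma1: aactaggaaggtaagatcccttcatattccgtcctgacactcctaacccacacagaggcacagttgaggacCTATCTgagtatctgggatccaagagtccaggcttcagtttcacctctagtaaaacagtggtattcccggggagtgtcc
Mcpt4: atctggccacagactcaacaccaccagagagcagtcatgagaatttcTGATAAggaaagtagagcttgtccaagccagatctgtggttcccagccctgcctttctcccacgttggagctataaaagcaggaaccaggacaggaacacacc
Cpa3: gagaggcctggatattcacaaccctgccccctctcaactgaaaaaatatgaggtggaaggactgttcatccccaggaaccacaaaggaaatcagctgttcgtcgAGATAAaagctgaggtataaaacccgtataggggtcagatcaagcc
Fcer1a: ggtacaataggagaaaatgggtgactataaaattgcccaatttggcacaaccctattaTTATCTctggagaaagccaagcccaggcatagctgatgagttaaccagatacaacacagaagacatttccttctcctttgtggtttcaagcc
Mrgprb2: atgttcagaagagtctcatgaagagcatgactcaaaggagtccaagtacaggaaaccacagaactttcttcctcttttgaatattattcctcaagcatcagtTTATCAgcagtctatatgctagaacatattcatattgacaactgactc
Il1rl1: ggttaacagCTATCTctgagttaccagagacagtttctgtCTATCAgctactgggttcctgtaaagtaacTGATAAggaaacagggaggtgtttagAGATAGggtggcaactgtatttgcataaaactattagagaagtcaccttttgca
A match stood in the 250 bases upstream of 15 of the 23 mast cell genes with an entry (65.2%), against 7322 of 27025 genes in all (27.1%). The 6 lines shown were taken from genes with a match; in the same window Hdc, Kit and Gata2 itself had none in 150 bases, and Kit and Gata2 none in 250. These are matches of letters in a fixed window, and no binding was measured here.

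Each group had 1 library. Differences between groups therefore have no test and no replicate check, and each interval below is a 95% interval that covers counting error only. Whole skin against dermis, K5. Pp6fl/fl against wild type, 18 against 10 weeks and no treatment against imiquimod differ together between the libraries and cannot be told apart. Of the filtered cells, 2379 of 2652 in lesional whole skin and 4990 of 4991 in imiquimod dermis had under 1% of their UMIs in keratin genes of the epidermis. The libraries held 34376558 UMIs (lesional) and 41258087 UMIs (imiquimod), shared no cell barcode with each other, and no mast cell's barcode occurred in another library of the series.

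The rule separated mast cells from the rest with few cells near its limit. In lesional whole skin, 0 cells lay between 0.5% and 1% and 3 lay between 1% and 2%, and 95 of the 127 mast cells exceeded 5%. In imiquimod dermis, 2 cells lay between 0.5% and 1% and 10 between 1% and 2%, and 95 of 134 exceeded 5%. The lowest mast cell stood at 1.23% in lesional skin, where the highest cell outside stood at 0.332%, and at 1.02% in imiquimod dermis, where the highest outside stood at 0.567%. The label fitted the markers that the rule did not use: in both libraries Tpsab1 and Mrgprb1 were over 500 times as high in mast cells as in the other cells. As the same cells were chosen by their proteases, this describes the cells and is no test.

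**Figure D1:**
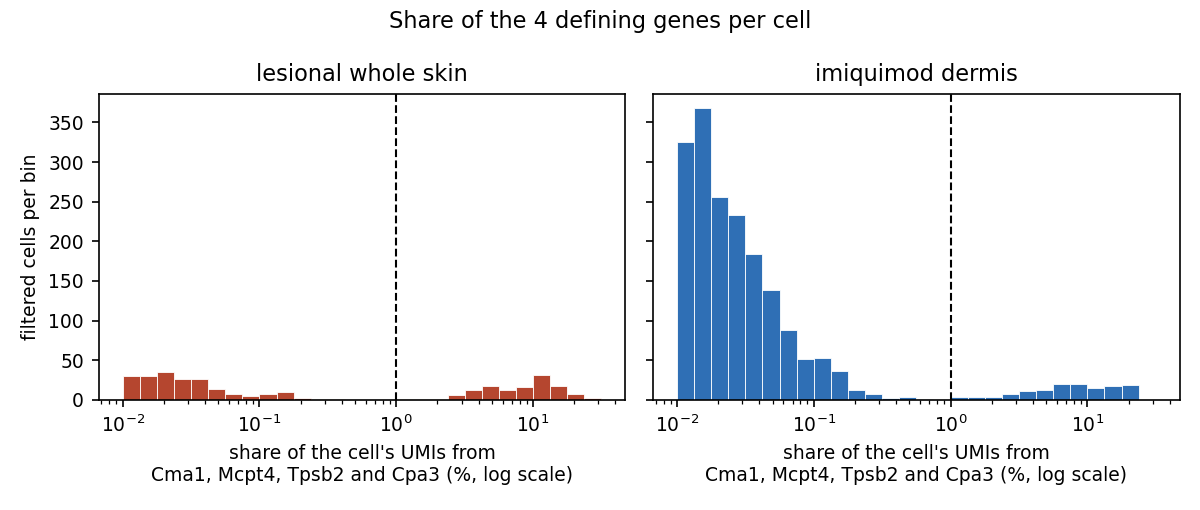
Share of each filtered cell's UMIs that came from Cma1, Mcpt4, Tpsb2 and Cpa3 (x axis, percent on a log scale) against the number of cells per bin, with lesional whole skin on the left, imiquimod dermis on the right and the limit of 1% dashed. Cells under 0.01% (2328 lesional, 3096 imiquimod) are not drawn; the gap between 0.5% and 1% holds 0 lesional and 2 imiquimod cells.

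Mast cells made up 4.79% (4.01 to 5.67, exact Clopper-Pearson interval) of lesional whole skin and 2.68% (2.25 to 3.17) of imiquimod dermis. Among cells with under 1% keratin UMIs the shares were 5.30% (4.43 to 6.27) and 2.69% (2.25 to 3.17), lesional first. Both shares depended on the filter. Mast cells were small libraries, and had a median of 1204 UMIs (538 to 10048) in lesional skin and 863 UMIs (500 to 10795) in imiquimod dermis, against 8939 and 6856 UMIs in the other cells. With at least 500 genes and under 10% mitochondrial UMIs, mast cells were 3.37% of the lesional and 1.21% of the imiquimod cells. That filter tightens both limits together and their parts were not separated: mast cells had a median of 604 genes and 7.99% mitochondrial UMIs in lesional skin, and of 465 genes and 2.90% in imiquimod dermis. Digestion, sorting and the authors' cell calling also set these shares, and fewer cells cannot be told apart from cells with less RNA that fell below the calling limit.

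Marker genes of macrophages, neutrophils, dendritic cells and fibroblasts were higher in the mast cells of the imiquimod dermis than in those of the lesional skin. Leaving out the basophil list, whose genes mast cells share in part, the 10 marker lists with at least 100 CPM in the other lesional cells stood in lesional mast cells at a median of 0.0241 times that level (0 to 0.303), and the 6 such lists of the imiquimod dermis at a median of 0.237 times (0.0268 to 0.545). The basophil list stood at 467 CPM in lesional mast cells, 1.90 times the other cells, and at 347 CPM in imiquimod mast cells, 0.998 times. Other lists had more CPM in the lesional mast cells: keratinocytes at 801 against 306 CPM, T cells at 202 against 133 CPM, erythroid cells at 73.7 against 17.3 CPM and Schwann cells at 34.4 against 0 CPM. Of the 53 keratinocyte UMIs in imiquimod mast cells 51 were Lgals7, which went the other way, at 147 CPM in lesional and 295 CPM in imiquimod mast cells. All 26 Krt15 UMIs of lesional mast cells lay in 1 cell, and the Schwann value rests on 7 UMIs. Lyz2 of macrophages had 34.4 CPM (UMIs of a gene scaled to a common total per group) in lesional and 1480 CPM in imiquimod mast cells, and S100a8 of neutrophils had 0 and 5266 CPM. In lesional mast cells Cd3d, Cd3e, Trbc1, Trbc2, C1qb, Csf1r, Csf3r and H2-Aa were all at 0 UMIs. In imiquimod mast cells Cd3e, Trbc1, Trbc2, Krt5 and Krt14 were at 0, and no defining macrophage or neutrophil marker was. At least 1% of UMIs from the neutrophil list was reached by 6 imiquimod mast cells, and 446 of the 911 S100a8 UMIs lay in 1 of them. Rule genes also lay outside the mast cells, in 15.2% of the other lesional and 49.5% of the other imiquimod cells, at 14.8 and 97.5 CPM.

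**Figure D2:**
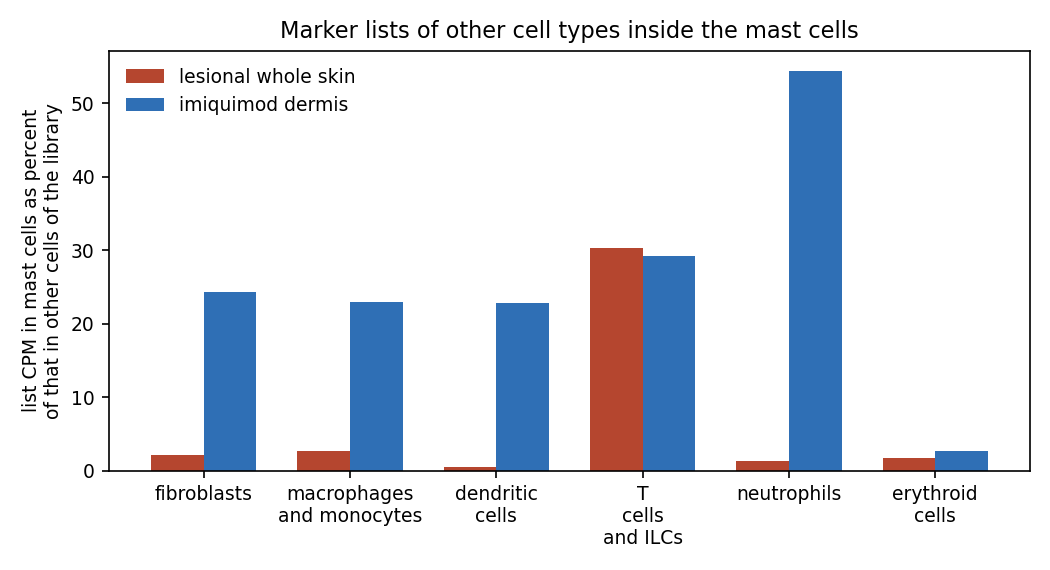
Summed CPM of 6 marker lists in mast cells as a percentage of that in the other cells of the same library (y axis), for lesional whole skin (left bar) and imiquimod dermis (right bar). Macrophage, dendritic cell and fibroblast lists stand near a ratio of 0.23 to 0.24 in imiquimod mast cells and at 0.0272 or less in lesional ones; the T cell bar of lesional mast cells is 39 UMIs of Il7r out of 41.

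The proteases by which the cells were chosen differed in balance. Mcpt4 and Tpsb2 were higher in lesional mast cells, while Cma1 and Cpa3 were nearly level in counts summed over cells. As a mean of cells, the lesional to imiquimod ratio was 0.69 for Cma1 and 0.66 for Cpa3. These ratios were 0.61 and 0.56 in cells under 1000 UMIs, and 0.996 and 1.11 in cells of at least 1000 UMIs. Cma1 took 36.1% of the UMIs of the 4 genes in lesional and 54.7% in imiquimod mast cells, and Mcpt4 took 36.9% and 20.6%. Cell by cell, the Mcpt4 share of all UMIs had a median of 3.23% (0.264 to 11.3) in lesional and 1.44% (0 to 5.55) in imiquimod mast cells. The Cma1 share had a median of 3.21% (0.376 to 10.6) in lesional and 4.70% (0.318 to 14.8) in imiquimod mast cells. The cells of the libraries overlapped in every one of the 4 genes.

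Summed over cells, Mcpt4 stood at 44267 CPM in lesional and 18560 CPM in imiquimod mast cells, a ratio of 2.39 (2.29 to 2.48). Tpsb2 stood at 17559 and 6237 CPM, a ratio of 2.82 (2.63 to 3.02). Cma1 stood at 43318 and 49172 CPM, a ratio of 0.881 (0.855 to 0.908), and Cpa3 at 14915 and 15982 CPM, a ratio of 0.93 (0.89 to 0.98). The rule used the sum of these genes, so their levels are a description. Among tryptases and proteases that it did not use, Tpsab1, whose protein C57BL/6 mice are known to lack through a splice-site change, had 472 CPM in lesional and 624 CPM in imiquimod mast cells, a ratio of 0.756 (0.568 to 1.0). Ctsd, a lysosomal protease, had 1514 and 457 CPM, a ratio of 3.32 (2.58 to 4.30). Of 17 granule and related proteases tested, the defining ones included, 3 were called higher (Mcpt4, Tpsb2 and Ctsd) and 4 lower (Mcpt1, Ctss, Mcpt8 and Gzmb). Other imiquimod cells held Ctss at 1201 CPM, above its 254 CPM in mast cells there. They held Mcpt8 at 269 CPM, above its 133 CPM in mast cells, and Gzmb at 88.9 CPM, below its 145 CPM. With other-cell RNA set aside, as described below, 3 of 12 genes of the list were called higher and 2 lower. The median log2 ratio of that list was -0.40, and it turned to 0.075 in cells with at least 500 genes and under 10% mitochondrial UMIs.

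**Figure D3:**
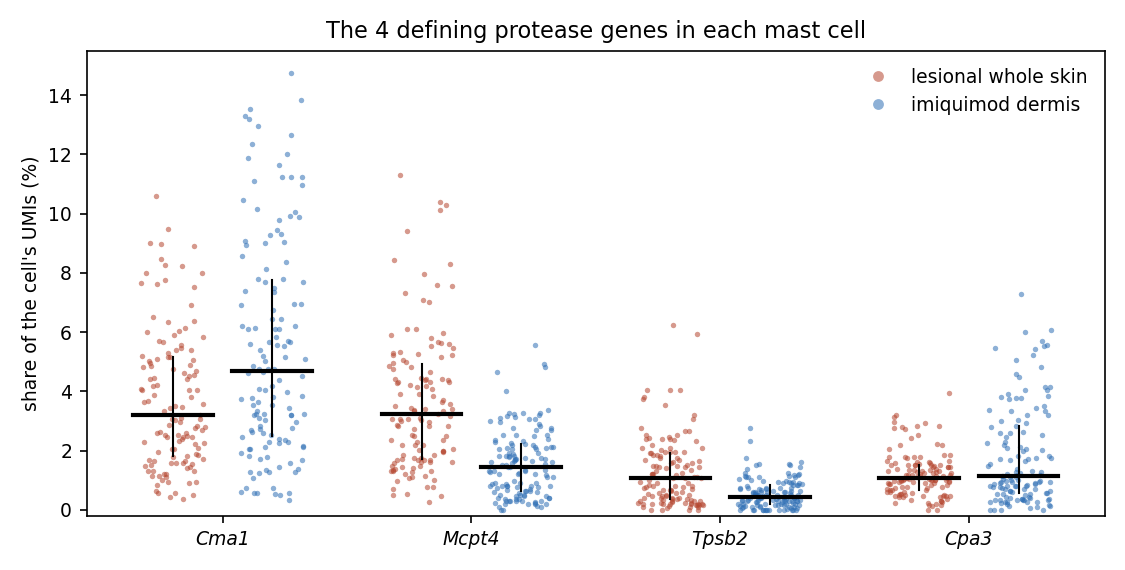
Share of UMIs (y axis, percent) from each defining protease gene in each mast cell, 127 points for lesional whole skin (left of each pair) and 134 for imiquimod dermis (right); bars mark medians and lines the quartiles. The Mcpt4 median is 3.23% in lesional and 1.44% in imiquimod cells, and the clouds overlap for all 4 genes.

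Of 3994 genes tested (10 UMIs or more in the mast cells of both libraries together, and 10 CPM or more in one), 244 were called higher in lesional mast cells (6.11%) and 280 lower (7.01%). Calls required the whole counting interval to clear 1.5-fold, which is a rule of size and stands in for a test. The median log2 ratio of all genes tested was 0.13 (pseudocount 5 CPM). Centred on that median, 196 were higher and 344 lower. With other-cell RNA set aside, 81 were higher, 328 were lower and the median was -0.27. That setting lowers each library total by its median marker ratio above, 0.0241 lesional and 0.237 imiquimod. It leaves out genes whose expected other-cell RNA exceeds 33.3% of their level in either library. No UMIs are taken off single genes, so every ratio falls by the same factor, as that of Kit does from 3.11 to 2.43. Differences below are read against these shifts.

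Identity genes of mast cells were more often called higher than lower in lesional cells. Of 24 genes that the rule did not use, 7 were called higher (Il1rl1, Fcer1a, Kit, Mrgprb1, Mrgprb2, Ndst2 and Slc6a4) and 0 lower, against 6.11% of all genes, with a median log2 ratio of 0.92. With other-cell RNA set aside 6 of 24 were higher, 2 were lower and the median was 0.57. The promoters of Fcer1a, Mrgprb2 and Il1rl1 are printed above.

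Kit, the stem cell factor receptor, stood at 880 CPM in lesional mast cells (62 of 127 cells with a UMI) and 283 CPM in imiquimod mast cells (39 of 134), a ratio of 3.11 (2.25 to 4.35). Il1rl1 stood at 1435 CPM (56 cells) and 405 CPM (46 cells), a ratio of 3.55 (2.72 to 4.67). Fcer1a stood at 4296 CPM (117 cells) and 1879 CPM (72 cells), a ratio of 2.29 (2.01 to 2.61). In the other cells of the libraries these genes were low, with Kit at 15.1 and 2.71 CPM and Fcer1a at 1.91 and 21.7 CPM. Picked by marker share, macrophages and fibroblasts had Il1rl1 ratios of 4.70 (2.24 to 9.66) and 4.19 (3.19 to 5.59). T cells had a Kit ratio of 11.1 (4.78 to 31.4). The Fcer1a ratio was 0.13 (0.003 to 0.76) in macrophages, 0.47 (0.05 to 2.90) in T cells and 0.15 (0.04 to 0.50) in fibroblasts. Those Fcer1a ratios come from levels near the floor, at most 3.29 CPM in either library, and the part of free RNA in them was not tested. After each cell was thinned to 500 UMIs, which left out no mast cell, Fcer1a was seen in 76.4% (68.0 to 83.5) of lesional and 43.3% (34.8 to 52.1) of imiquimod mast cells, against 0.2% and 2.1% of other cells.

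The Mas-related receptors followed the same direction. Mrgprb2, the receptor for basic peptides and several drugs, had 526 CPM in lesional and 121 CPM in imiquimod mast cells, a ratio of 4.33 (2.70 to 7.29). Mrgprb1, a receptor of the same family, had 1760 and 711 CPM, a ratio of 2.48 (2.01 to 3.06). Thinned to 500 UMIs, Mrgprb2 was seen in 22.8% (15.9 to 31.1) of lesional and 6.7% (3.1 to 12.4) of imiquimod mast cells.

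Other identity genes did not pass the size rule. Ms4a2, the beta chain of the IgE receptor, had 728 CPM in lesional and 370 CPM in imiquimod mast cells, a ratio of 1.97 (1.46 to 2.68). Gata2 had 688 and 705 CPM, a ratio of 0.98 (0.76 to 1.25), and Mitf had 157 and 98.3 CPM, a ratio of 1.60 (0.86 to 3.07). The interval of Gata2 lies within 1.5-fold, whereas that of Mitf allows both a lower level and a 3-fold higher one. Hdc, which makes histamine, had 2763 and 1977 CPM, a ratio of 1.4 (1.22 to 1.6).

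**Figure D4:**
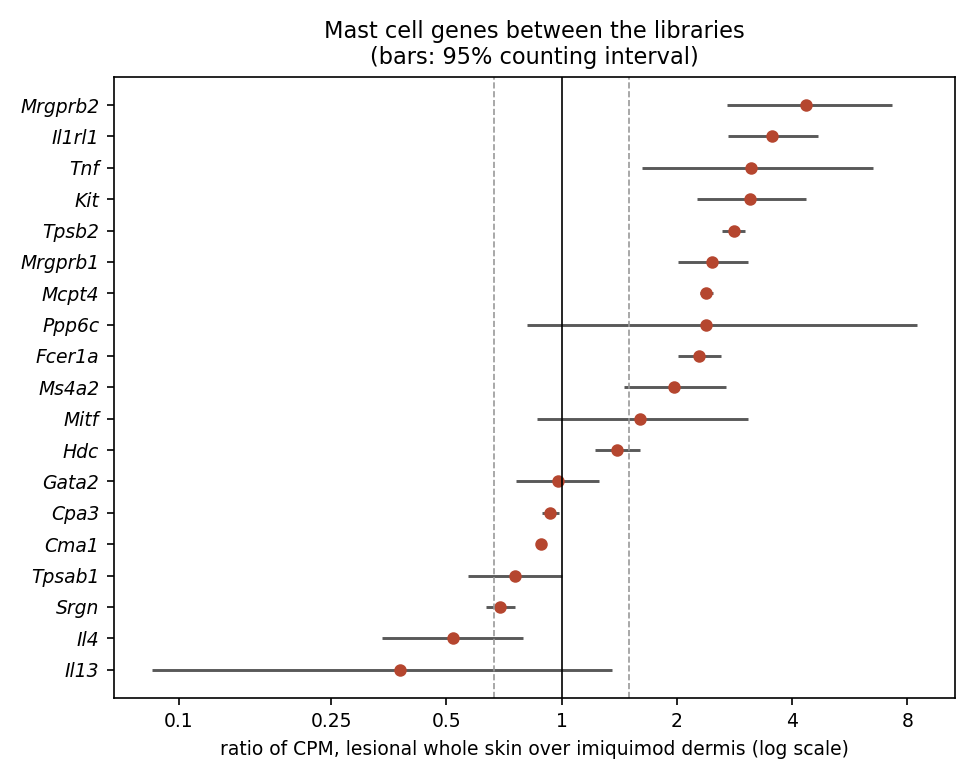
Ratio of CPM in mast cells, lesional whole skin over imiquimod dermis (x axis, log scale), for 19 genes given by rule, with 95% counting intervals as bars, a solid line at 1 and dashed lines at 1.5-fold either way. Mrgprb2, Il1rl1, Tnf, Kit, Tpsb2, Mrgprb1, Mcpt4 and Fcer1a lie wholly beyond 1.5-fold; no gene shown lies wholly below it.

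The size of these ratios depended on cell depth for part of the genes. Among mast cells with under 1000 UMIs (37 lesional, 85 imiquimod), Fcer1a had 2237 CPM in lesional and 2122 CPM in imiquimod cells, and the ratio was 1.05. Among those with at least 1000 UMIs (90 lesional, 49 imiquimod), Fcer1a had 4640 and 1745 CPM, and the ratio was 2.66. The Il1rl1 ratio was 1.16 in the shallower and 4.31 in the deeper cells, and that of Mrgprb1 1.26 and 3.15. Of the 8 genes beyond 1.5-fold in the plot of gene ratios, Mcpt4 passed in both depths, at 1.97 in the shallower and 2.28 in the deeper cells. In the shallower cells Kit (2.0), Tpsb2 (1.71) and Mrgprb2 (2.81) also lost their calls, though their ratios stayed above 1. Hdc went the other way, with a ratio of 2.06 in the shallower and 1.19 in the deeper cells. As a mean of cells, which gives each cell the same weight, the ratio was 1.60 for Fcer1a, 1.75 for Mrgprb1 and 1.85 for Hdc. Under that setting Fcer1a and Mrgprb1 lost their calls and Hdc gained one. Markers of other cell types differed by depth as well. In imiquimod mast cells the neutrophil list had 6545 CPM in the shallower and 11509 CPM in the deeper cells, and the macrophage list 1567 and 2273 CPM. In lesional mast cells these lists had 68.8 and 22.9 CPM, and 34.4 and 63.1 CPM. The difference between depths, and the part of other-cell RNA in it, was not tested.

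In the list of high-affinity IgE receptor signalling, 3 of 21 genes tested were called higher (Fcer1a, Inpp5d and Stim1) and 0 lower, against 6.11% higher and 7.01% lower among all genes tested, with a median log2 ratio of 0.75. With other-cell RNA set aside, 1 of 18 was higher, 1 was lower and the median was 0.30. Fcer1g, the signalling chain shared with other Fc receptors, had 3829 CPM in lesional and 6081 CPM in imiquimod mast cells, a ratio of 0.63 (0.57 to 0.69), and the other imiquimod cells had 3412 CPM of it. Among 22 activating and growth factor receptors, 5 were higher and 0 lower (6.11% and 7.01% of all genes), and the 5th beside Kit, Il1rl1, Mrgprb1 and Mrgprb2 was Tgfbr1, at 128 and 23.1 CPM, a ratio of 5.53 (1.92 to 21.8). Among 12 inhibitory receptors only Cd84 was called, higher at 83.6 against 11.6 CPM, so that the share is near that of all genes. The median of that list was 0.39, and it turned to -0.12 with other-cell RNA set aside. The activating receptor list had a median of 0.85 in mast cells. In macrophages, T cells and fibroblasts picked by marker share its medians were 0.87, 0.63 and 0.55. Those of the IgE signalling list were 0.47, 0.86 and 0.095 there. Over all genes the medians were 0.42, 0.47 and 0.51, against 0.13 in mast cells. The activating receptor median exceeded the median over all genes in each of these cell types, by most in mast cells. The IgE signalling median did so in mast cells, macrophages and T cells, again by most in mast cells, and not in fibroblasts. The difference between cell types was not tested.

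Tph1 and Slc6a4, which serve serotonin synthesis and uptake, were among the genes that set mast cells furthest apart from other cells. Tph1, the first enzyme of serotonin synthesis, was at 2473 CPM in lesional mast cells, where the other cells had 0.501 CPM, and at 792 CPM in imiquimod mast cells, where the others had 0.394 CPM. The lesional to imiquimod ratio of Tph1 was 3.12 (2.58 to 3.8), and 106 of 127 lesional and 40 of 134 imiquimod mast cells had a UMI. Slc6a4, the serotonin transporter, had 1072 and 312 CPM, a ratio of 3.43 (2.54 to 4.72). Slc18a2, which loads monoamines into granules, had 511 and 254 CPM, a ratio of 2.01 (1.4 to 2.93). Ddc, the second enzyme of synthesis, had 88.5 and 104 CPM, a ratio of 0.85 (0.42 to 1.73). Tph1 and Slc6a4 thus passed the size rule, and Slc18a2 and Ddc did not. Serotonin was not one of the gene lists, and Ddc was chosen after its values were seen.

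By rank, the 15 genes that set mast cells furthest apart from the other cells in both libraries were the 4 rule genes, Tph1, Mrgprb1, Tpsab1, Fcer1a, Tpsg1, Slc6a4, Ccl7, Serpinb1a, Atp8b5, Il1rl1 and Kit. Serpinb1a, an inhibitor of granule proteases, had 2881 CPM in lesional and 4665 CPM in imiquimod mast cells, a ratio of 0.62 (0.55 to 0.69). Against the other cells of its library, 467 of 9689 genes (4.82%) were beyond 2-fold higher in lesional mast cells and 789 (8.14%) lower. In imiquimod mast cells 384 of 7710 (4.98%) were higher and 182 (2.36%) lower. Since the same cells were chosen by their protease genes, these counts are a description and no test.

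Of granule content genes, 3 of 13 tested were called higher in lesional mast cells and 0 lower, against 6.11% and 7.01% of all genes, with a median log2 ratio of 0.99. The 3 genes make heparan sulphate and heparin chains: Ext1 at 172 against 40.5 CPM, a ratio of 4.25 (1.86 to 11.3), Ndst2 at 187 against 52.0 CPM, a ratio of 3.59 (1.71 to 8.44), and Hs2st1 at 256 against 80.9 CPM, a ratio of 3.16 (1.73 to 6.17). Srgn, the proteoglycan core that carries heparin, had 4562 CPM in lesional and 6601 CPM in imiquimod mast cells, a ratio of 0.69 (0.63 to 0.75). With other-cell RNA set aside, 0 of 12 granule genes were called higher and 2 lower, one of them Srgn at a ratio of 0.54. The medians of the granule list were 0.73 in macrophages, 0.22 in T cells and 0.60 in fibroblasts picked by marker share. In the exocytosis list, with shares near those of all genes, 1 of 13 genes was higher (Stx3, 187 against 34.7 CPM) and 1 lower (Vamp8, 251 against 792 CPM, a ratio of 0.32, 0.22 to 0.44). Other imiquimod cells had 553 CPM of Vamp8.

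Cytokines and chemokines ran the other way. Of 19 genes tested, 7 were called lower in lesional mast cells (Ccl6, Il1b, Ccl3, Ccl9, Ccl1, Cxcl2 and Ccl7), 1 higher (Tnf), and the median log2 ratio was -1.21, against 7.01% of all genes lower. Ccl7, a chemokine for monocytes and a leading mast cell gene of both libraries, had 6091 CPM in lesional (100 of 127 cells) and 15583 CPM in imiquimod mast cells (128 of 134), a ratio of 0.39 (0.37 to 0.42), and the other cells had 119 and 319 CPM. Ccl2, its close relative, had 2138 and 3364 CPM, a ratio of 0.64 (0.56 to 0.72), which did not pass. Ccl1, a ligand of Ccr8, had 9.83 CPM (2 cells) and 110 CPM (10 cells), with 1.47 and 0.0737 CPM in other cells.

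Il1b, Ccl3, Ccl6, Ccl9 and Cxcl2 are myeloid genes that the other imiquimod cells held at higher levels than its mast cells did. Il1b, for example, had 4.92 CPM in lesional and 694 CPM in imiquimod mast cells, while the other imiquimod cells had 1317 CPM. None of these 5 genes could be tested with other-cell RNA set aside, and its part in their values was not tested. The 9 cytokine genes that remained under that setting are others, of which 4 were lower (Ccl1, Ccl2, Ccl7 and Il4) and 0 higher, with a median of -1.01.

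Il4 had 187 CPM in lesional (26 cells) and 358 CPM in imiquimod mast cells (43 cells), a ratio of 0.52 (0.34 to 0.79), which was not called, and 0.41 with other-cell RNA set aside, which was. Il13 had 4 and 9 UMIs, so its ratio of 0.38 (0.085 to 1.35) was not resolved at this depth. Tnf had 216 CPM (20 cells) and 69.4 CPM (11 cells), a ratio of 3.12 (1.62 to 6.49), and it lost its call with other-cell RNA set aside (2.44) and turned to 0.264 in cells under 1000 UMIs.

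Among transcription factors of mast cells, 5 of 19 tested were called higher (Zeb2, Ikzf2, Meis2, Stat5a and Bhlhe40) and 0 lower. That stands against 6.11% and 7.01% of all genes, and the median log2 ratio was 0.92. With other-cell RNA set aside, 2 of 15 were higher, 0 were lower and the median was 0.58. With the lesional Xist cells described below alone, 0 of 15 were higher and 0 lower. In macrophages, T cells and fibroblasts picked by marker share the medians of this list were 0.69, 1.07 and 0.18. Zeb2, a zinc finger repressor, had 560 CPM in lesional and 185 CPM in imiquimod mast cells, a ratio of 3.03 (2.03 to 4.64). Bhlhe40 had 12 UMIs in lesional and 0 in imiquimod mast cells, and is at least 3.4-fold higher against 3 counts over the group, while its counting interval begins at 2.36. Of eicosanoid genes, 2 of 7 were higher (6.11% of all genes), Mboat7 at 103 against 23.1 CPM and Pla2g7.

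The rule for named genes asks for 50 CPM and an interval beyond 2-fold. It also asks for a level at least 3 times a guard ratio times the level in the other cells of the library. By this rule 34 of the 118 genes beyond 2-fold higher (2.95% of genes tested) and 14 of the 153 lower (3.83%) were eligible. Either way, 6.79% were beyond 2-fold. The guard ratio was that of the basophil list, 1.90 lesional and 0.998 imiquimod. Mast cells share its genes in part, so the ratio does not measure RNA from other cells, and it is stricter on the lesional side. Without that list 95 and 36 genes were eligible, with 4 and 8 of the 12 named on each side kept. The 12 highest in lesional mast cells were Dnm3, Speer4e, Speer4d, Tmem233, Smarca1, Gga2, Cgnl1, Asph, Carmil1, Ankrd44, Slc7a8 and Pla2g7. Asph, an aspartate hydroxylase of the endoplasmic reticulum, had 477 CPM in 41 lesional cells and 57.8 CPM in 10 imiquimod cells, a ratio of 8.25 (4.30 to 17.7). Gga2, an adaptor that sorts cargo at the Golgi, had 275 CPM in 39 cells and 28.9 CPM in 5, a ratio of 9.53 (3.85 to 30.5). Pla2g7, which breaks down platelet-activating factor, had 555 and 75.1 CPM, a ratio of 7.39 (4.15 to 14.3), and the other imiquimod cells had 211 CPM.

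Dnm3, a dynamin of membrane scission, had 25 UMIs in 19 lesional cells and 0 in imiquimod mast cells, and is at least 7.09-fold higher against 3 counts over the group, while its counting interval begins at 5.35. Slc7a8, a transporter of neutral amino acids, had 438 and 57.8 CPM, a ratio of 7.57 (3.93 to 16.3). Its ratio was 3.47 (2.81 to 4.26) in macrophages and 0.94 (0.48 to 1.93) in fibroblasts. Speer4e and Speer4d had 53 and 31 UMIs in lesional and 1 each in imiquimod mast cells, but they belong to a family of near-identical copies, so which copy was counted is uncertain. Cgnl1 and Ankrd44 had 0 UMIs in the 24 lesional cells with Xist described below. The remaining 5 had 11 to 48 UMIs in lesional and 0 to 5 in imiquimod mast cells, and 17 of the 48 Ankrd44 UMIs came from 1 cell.

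The 12 lowest in lesional mast cells were Mcpt1, Gskip, Ctsj, Tnfrsf9, Akr1c13, Calca, Ccl1, Caly, Lag3, Rprm, Gpm6b and Hmgn2. Mcpt1, the mucosal-type chymase, had 0 UMIs in lesional and 140 in imiquimod mast cells, and is at least 54.9-fold lower against 3 counts over the group, while its counting interval begins at 44-fold. Those 140 UMIs lay in 3 of 134 cells, 95 of them in 1 cell, so Mcpt1 was a feature of single cells and not of the population. Mcpt2 was likewise rare, with 7 UMIs in 7 lesional and 13 in 4 imiquimod cells. Calca, the gene of calcitonin and the neuropeptide CGRP, had 4 and 37 UMIs, and 32 of the 37 lay in 1 cell. Ctsj had 0 UMIs in lesional mast cells and 10 in 2 imiquimod cells, 9 of them in 1 cell. For Tnfrsf9, 17 of the 41 imiquimod UMIs lay in 1 cell.

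Rprm, a p53 target, was spread over more cells, with 49.2 CPM in 9 lesional and 289 CPM in 30 imiquimod mast cells, a ratio of 0.17 (0.08 to 0.34). Hmgn2, a nucleosome-binding protein gene, had 103 CPM in 15 and 422 CPM in 42 cells, a ratio of 0.24 (0.14 to 0.40). Of its 73 imiquimod UMIs 19 lay in 1 cell, and the ratio was 0.70 in cells under 1000 UMIs. Macrophages, T cells and fibroblasts picked by marker share had Hmgn2 ratios of 0.43, 0.73 and 0.59. Lag3, a receptor best known from T cells, had 29.5 CPM in 6 and 202 CPM in 17 cells, a ratio of 0.15 (0.05 to 0.35). In T cells picked by marker share the Lag3 ratio was 1.78 (0.81 to 4.05), an interval that holds 1. The other imiquimod cells had 9.84 CPM of Lag3, far below its mast cells.

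Genes of general cell function differed as well. Nuclear-encoded genes of oxidative phosphorylation were lower in lesional mast cells: 23 of 46 were called lower and 0 higher, against 7.01% and 6.11% of all genes, with a median log2 ratio of -1.10, and of -1.47 with other-cell RNA set aside. Atp5l, an ATP synthase subunit, had 580 CPM in lesional and 2092 CPM in imiquimod mast cells, a ratio of 0.28 (0.22 to 0.34). The same list had medians of -0.88 in macrophages and monocytes, -0.80 in T cells and -0.93 in fibroblasts picked by marker share, whose medians over all genes were 0.42, 0.47 and 0.51. Those cell types hold more UMIs, and of their genes tested 29.5%, 27% and 35% were called higher and 6.08%, 6.31% and 9.22% lower, in the same order. Mitochondrially encoded genes were higher instead, with 8 of 12 called higher (6.11% of all genes) and a median of 1.47 in mast cells, against 0.79, 1.39 and 0.72 in those cell types.

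Immediate-early and heat shock genes, which tissue digestion is known to induce, were called higher in 14 of 33 and lower in 1 (Btg2), against 6.11% and 7.01% of all genes, with a median of 0.87 in mast cells, and medians of 1.02, 1.07 and 0.81 in macrophages, T cells and fibroblasts. Hspa1b, an inducible chaperone, had 12934 CPM in lesional and 3549 CPM in imiquimod mast cells, a ratio of 3.64 (3.34 to 3.99). Mitochondrial RNA took 7.21% of UMIs in lesional and 3.26% in imiquimod mast cells, and ribosomal protein genes took 12.7% and 19.9%. The same order held in the other cells, with 4.59% and 2.58% mitochondrial and 19.4% and 27.3% ribosomal UMIs. The part of preparation in these lists was not tested.

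**Figure D5:**
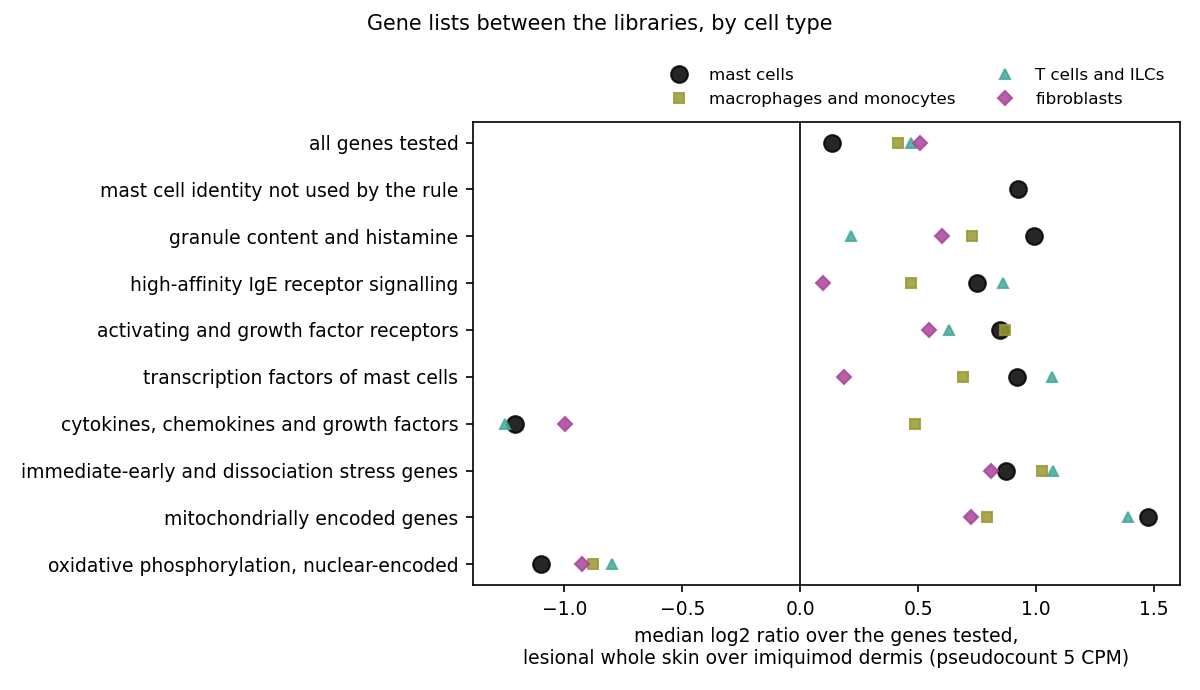
Median log2 ratio of CPM, lesional whole skin over imiquimod dermis (x axis), for gene lists with at least 10 genes tested, in mast cells (large circles) and in fibroblasts, in macrophages and monocytes, and in T cells and ILCs picked by marker share. Mitochondrially encoded (1.47 in mast cells) and oxidative phosphorylation lists (-1.10) lie on the same side in all 4 cell types.

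MHC class II genes were called lower in all 6 tested (7.01% of all genes), with a median log2 ratio of -5.51. H2-Aa had 0 UMIs in lesional and 80 in imiquimod mast cells (462 CPM), while the other imiquimod cells had 2057 CPM. Every gene of that list dropped out when other-cell RNA was set aside, so no level of their own in mast cells was measured. Lgals1, a galectin, had 1721 CPM in lesional and 6647 CPM in imiquimod mast cells, a ratio of 0.26 (0.23 to 0.29), with 3028 CPM in other imiquimod cells, and Apoe, which carries lipid, had 4041 and 1607 CPM, a ratio of 2.51 (2.19 to 2.89), with 3030 CPM in other lesional cells.

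The remaining lists, read against the same 6.11% higher and 7.01% lower of all genes, had few calls. NF-kB targets had 2 of 10 genes called higher (Nfkb1 and Nfkbiz) and a median of 0.69, which turned to -0.49 with other-cell RNA set aside. Interferon-stimulated genes had 1 of 4 lower (Ifi27l2a), MHC class I genes 1 of 12 lower (B2m), cell cycle genes 2 of 12 lower (Tuba1b and Stmn1), and adhesion genes 1 of 19 lower (Lgals1). Glycolysis had 1 of 19 higher (Slc2a3), the unfolded protein response 1 of 18 higher (Dnajb9), lipid handling 1 of 11 higher (Apoe) and 1 lower (Fabp5), and polyamine metabolism 0 of 8. No mast cell of either library had a UMI of the proliferation gene Mki67. Ppp6c, the gene named in the genotype, had 14 UMIs in lesional and 5 in imiquimod mast cells, a ratio of 2.38 (0.81 to 8.45). These counts come from transcript 3′ ends and the sources used here do not state which exons were deleted, so they check nothing about the genotype. Tlr7, the receptor of imiquimod, had 1 UMI in each.

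The lesional library held cells of both sexes. Of its mast cells 24 had UMIs of Xist alone, 21 of Y-linked genes alone and 0 of both, while 0 imiquimod mast cells had Xist and 12 had Y-linked UMIs. The sources used here do not state how many mice gave either kind of cell. Tpsb2 had 12487 CPM in the Xist and 29532 CPM in the Y cells, a ratio of 0.42 (0.38 to 0.47). Fcer1a had 2022 and 5492 CPM, a ratio of 0.37 (0.28 to 0.47), and Il1rl1 776 and 2461 CPM, a ratio of 0.32 (0.21 to 0.47). These genes were lower in the Xist cells.

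Mcpt4 had 42494 CPM in the Xist and 52844 CPM in the Y cells, a ratio of 0.80 (0.76 to 0.86), Mrgprb2 588 and 342 CPM, a ratio of 1.72 (0.87 to 3.51), and Hdc 2563 and 2279 CPM, a ratio of 1.12 (0.85 to 1.49). With the Xist cells alone as the lesional group, the lesional to imiquimod ratio was 1.08 for Fcer1a, 1.92 for Il1rl1, 2.0 for Tpsb2, 2.29 for Mcpt4 and 4.84 for Mrgprb2. With the Y cells alone, the only sex found in the imiquimod library, it was 2.92 for Fcer1a, 6.08 for Il1rl1, 4.74 for Tpsb2, 2.85 for Mcpt4 and 2.82 for Mrgprb2. With the Xist cells alone Fcer1a, Il1rl1 and Kit (2.41) lost their calls, and with the Y cells alone Mrgprb2 did. Mcpt4 and Tpsb2 passed with either. Sex and single mice cannot be told apart here.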

How the data were processed

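Single-cell libraries (Chromium 3′ v3, enzyme digestion, dead cells removed by sorting) were deposited by the authors as raw UMI count matrices, made with CASAVA and Cell Ranger on mm10 per the submitters' processing notes. The file headers name software version 3.0.2, and the sources used here do not state how cells were called. Cells were filtered and chosen as the report states. The members and gene lists were chosen with earlier results of these data known. Counts were summed per library and given as CPM, with exact Poisson intervals and exact conditional binomial intervals of ratios. Named genes were a fixed set plus the 12 highest and 12 lowest ratios beyond 2-fold with 50 CPM whose level exceeded 3 times the guard ratio times the level in other cells, ranked by size; the guard ratio was the highest among marker lists of other cell types (1.90 lesional, 0.998 imiquimod, both basophils). Doublets were kept, and removing the highest Scrublet scores (73 lesional and 215 imiquimod cells) was an alternative. Simulated data for this comparison (4033 genes) were Poisson counts without clumping by cell. Of the changes set in them, 34.0% of 2.5-fold and 74.5% of 5-fold ones were recovered. Python 3.11.15, numpy 2.4.6, pandas 2.3.3, scipy 1.17.1, scanpy 1.11.5 and matplotlib 3.10.9 were used.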

Additional observations from a re-analysis of the deposited data

Results flagged for a closer look

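The untreated dermis, which enters no comparison, also held mast cells by the same rule: 5 of 521 filtered cells, or 0.960% (0.312 to 2.23, exact Clopper-Pearson interval). The share lies above the 0.576% that a count of 0 allows by the 3-count limit, but the lower end of its interval does not. These 5 cells had 693 to 3720 UMIs each and 1.44% to 7.43% of them in the 4 protease genes. Cma1 stood at 15988 CPM and Hdc at 5659 CPM in them. Of the other cells of that library, 53.1% had a UMI of a rule gene. The untreated epidermis had 0 of 905 such cells, which allows up to 0.331% (3-count limit), and the non-lesional epidermis 0 of 2873, which allows up to 0.104%.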

How the results depend on the processing

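No paired analysis was possible because each group had 1 library, and for the same reason no replicate could be left out. Of 789 gene ratios recomputed, 703 kept the call or its absence, 74 lost the call, 9 gained one and 3 reversed. An uncalled ratio that crossed 1 without gaining a call counts as kept. Cma1, for example, went from 0.881 to 1.05 with at least 500 genes and under 10% mitochondrial UMIs. Of 479 list medians, 471 stayed within the median interval of the list's genes and 7 left it. Of the 479, 38 took the other sign, most from medians whose interval held 0, and 8 of these with other-cell RNA set aside; the protease median, whose interval lay below 0, became 0.075 with 500 genes and 10% mitochondrial UMIs. Mast cell shares were 3.37% lesional and 1.21% imiquimod under that filter, 3.58% and 1.90% with a 5% threshold and 3.95% lesional over all barcodes. That filter left 113 genes lower in imiquimod mast cells than in other cells. The 5% threshold left 70 genes higher beyond 2-fold, and a minimum of 30 UMIs left 159 higher beyond 1.5-fold. Counts of genes higher and lower beyond 1.5-fold, then higher and lower beyond 2-fold, were 82, 121, 41 and 70 after thinning to 500 UMIs and 105, 119, 47 and 61 with lesional Xist cells alone, where Cgnl1 and Ankrd44 stood at 0. Chosen after seeing the data were the other-cell RNA setting (81 higher beyond 1.5-fold, 39 beyond 2-fold), cells under 1000 UMIs (49, 89, 20 and 37, with Tnf at 0.264) and shares over cells of at least 1000 UMIs (3.59% lesional, 1.04% imiquimod). Fewer cells or UMIs widen the intervals in these settings; other causes were not tested. The self-test recovered 85.7% of 2.5-fold changes in the 14 such genes of at least 100 UMIs, and 34.0% over all genes. In the simulation, sparse genes thus limited what could be called. Its counts had no clumping of UMIs in single cells, so its rates do not carry over to genes with such clumping.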
